A study of Mus musculus with 4 samples.

Results

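C/D box small nucleolar RNAs were followed in the small RNA of mouse sperm. Members were the transcripts of the RefSeq class whose gene symbol starts with Snord, the gene name of this family, and their values were summed per gene. The reference gene table holds 94 such genes, of which 73 had a row in at least 1 of the 2 deposited tables, among 16781 RefSeq genes in all. Of the 21 genes without a row, 17 were copies of Snord116, most of them known from a predicted transcript only. Spermatozoa came from the cauda epididymis, where sperm are stored after maturing, of adult C57BL/6 mice, and the tables compared mice of an original cross with mice of an extra cross to wildtype, with 2 mice in each cross and a library of each mouse. The study concerned silencing of LoxP, the recognition site of Cre recombinase, but the labels name neither the susceptible cross nor a genotype or allele. Every library was made from gel-selected RNA with the same kit and all 4 were sequenced in 1 lane. Values are RPM, reads scaled to a common library total. A read was worth 1.58 RPM in original-cross replicate 1 and 0.561 RPM in replicate 2, and 0.642 and 0.238 RPM in the extra-cross libraries. The deepest library thus resolved levels more than 6 times lower than the shallowest, original-cross replicate 1.

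A C/D box RNA is a short nuclear RNA that base-pairs with another RNA and directs the methyltransferase fibrillarin to methylate a ribose there. Its ends carry the C and D boxes, which bind the core proteins of the particle. Most guide ribosomal RNA, a few guide the U6 spliceosomal RNA, some act in cutting the ribosomal precursor, and most vertebrate members are trimmed out of introns of host genes that often encode ribosomal proteins or translation factors. Mature sperm are largely silent in transcription, and their cytoplasm is mostly shed.

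The sequences of the members that the results turn on are shown here with the boxes in capitals, TGATG as the core of the C box and CTGA as the D box. The first 2 were the most abundant members. They are followed by 4 members whose 2 extra-cross values both lay above the original-cross values and by the 3 abundant U14 genes, whose values lay lower on average in the extra cross. All were read 5′ to 3′ from build GRCm38 at GENCODE positions, and written as DNA. Snord43, whose annotated GENCODE entry is longer, was read at its RefSeq interval, which is cut short on the 5′ side, so that its C box is not in the run.
Snord2: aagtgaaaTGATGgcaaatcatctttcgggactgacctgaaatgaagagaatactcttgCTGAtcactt
Snord104: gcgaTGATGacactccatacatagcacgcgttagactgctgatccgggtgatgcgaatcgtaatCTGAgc
Snord43: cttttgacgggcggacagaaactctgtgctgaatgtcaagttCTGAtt
Snord4a: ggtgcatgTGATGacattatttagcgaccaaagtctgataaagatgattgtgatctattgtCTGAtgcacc
Snord66: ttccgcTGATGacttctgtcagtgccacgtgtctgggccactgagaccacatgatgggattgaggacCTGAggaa
Snord16a: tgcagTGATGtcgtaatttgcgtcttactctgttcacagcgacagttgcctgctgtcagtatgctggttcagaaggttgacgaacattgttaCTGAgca
Snord14c: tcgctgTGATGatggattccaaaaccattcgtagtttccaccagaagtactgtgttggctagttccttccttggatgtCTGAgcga
Snord14d: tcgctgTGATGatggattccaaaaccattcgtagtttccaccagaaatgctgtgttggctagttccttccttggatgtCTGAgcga
Snord14e: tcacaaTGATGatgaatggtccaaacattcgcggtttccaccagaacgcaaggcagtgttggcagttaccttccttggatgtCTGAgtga

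These RNAs lie at chr16:23108953-23109021 on the plus strand for Snord2, chr11:106500993-106501062 plus for Snord104, chr15:80082859-80082906 minus for Snord43, chr11:78181686-78181756 minus for Snord4a and chr16:20684239-20684313 plus for Snord66. Snord16a lies at chr9:64175423-64175521 plus. Snord14c, Snord14d and Snord14e lie close together on the plus strand of chr9, at chr9:40803583-40803668, chr9:40803995-40804080 and chr9:40804748-40804837, all inside Hspa8. Snord14c and Snord14d have 86 bases each and differ at 2 of them, so that short reads from most of their length cannot be assigned to one or the other.

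The label was checked on sequence, with chromosome 18, which holds Snord58b, left out of every set. Of 72 members with a GENCODE sequence, 63 (87.5%) had TGATG in the first part of the RNA, ending at 1/3 of its length, 71 (98.6%) had CTGA in the last part of the same size and 62 (86.1%) had both. Among 41 box H/ACA snoRNAs, the other large class, the same search on the RNA strand found TGATG in 2.44%, CTGA in 29.3% and both in 0%. Among 32851 promoter windows of 68 bases it found 2.06%, 11.5% and 0.262%. The GENCODE sequences of the members had a median of 80 bases, so most promoter searches covered a shorter stretch. RefSeq lengths of the members ran from 28 to 221 bases with a median of 68, and in 35 members the RefSeq entry was at least 10 bases shorter than the GENCODE one. By annotation 70 of the 73 lay inside a host gene on the same strand, 38 of them in an intron of every host transcript, 29 inside an exon of at least 1 and 3 across an exon end. The 3 without a host were Snord104, Snord118 and Snord13.

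Detection was broad. The 4 libraries, always in the order of the original cross (replicate 1, then 2) and the extra cross (replicate 1, then 2), had values above 0 for 59, 69, 72 and 70 members, and 57 members were above 0 in all 4. The summed reads were 898, 1681, 3554 and 5492. A mean of at least 10 RPM, the minimum for testing, was reached by 26 members, while 33 had a mean from 1 to 10 RPM and 14 a lower one. Snord34 and Snord73a, at means of 9.12 and 9.16 RPM, lay just under that minimum, and Snord87 and Snord22, at 11.0 and 11.8 RPM, just over it. The order of the members was much the same in every mouse, with Spearman's rho from 0.829 to 0.895 between pairs of libraries across 73 genes, which share depth and library preparation within a pair's columns and are not independent replicates.

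The family was dominated by a few RNAs. Snord2 and Snord104, both guides of 28S ribosomal RNA methylation, made up 48.2% of the summed mean level and the top 10 members 70.3%. Per kb of RefSeq entry, Snord2 had a mean level of 7832 RPM, Snord104 2516 RPM, Snord85 720 RPM, Snord43 693 RPM and the U14 copy Snord14d 599 RPM. Level went only loosely with length of the entry (Spearman's rho 0.248 across 73 genes, given as a description).

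**Figure D1:**
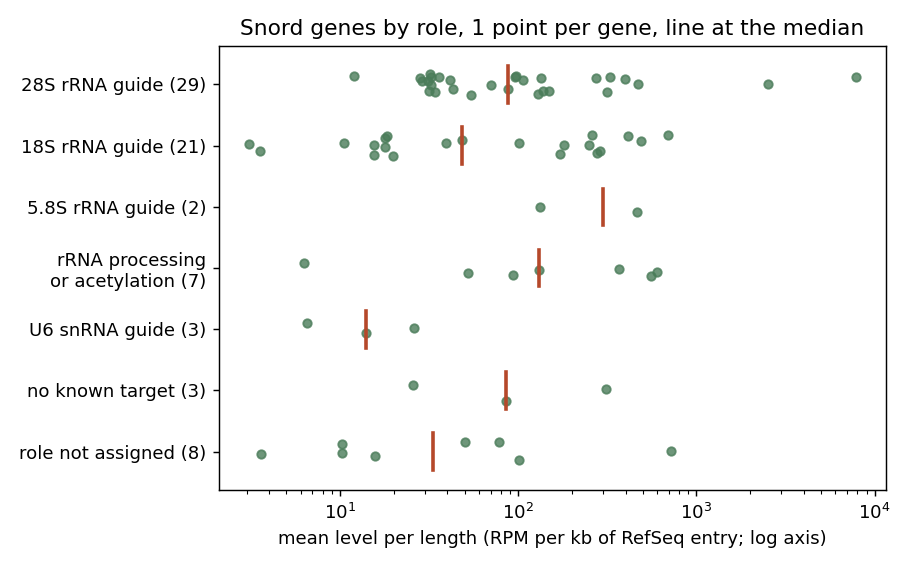
Mean level over the 4 libraries in RPM per kb of RefSeq entry (log axis), with 1 point per Snord gene, grouped by the known role of the RNA, and a line at each group's median. Snord2 and Snord104 are the 2 points farthest right among the 28S guides, while the 3 guides of U6 snRNA lie low.

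The first comparison was of the whole family between the crosses. The summed Snord level was 1419 and 943 RPM in original-cross mice, against 2282 and 1306 RPM in extra-cross mice, means of 1181 ± 336 and 1794 ± 690 RPM (SD, n = 2 each). The ranges overlapped, since original-cross replicate 1 lay above extra-cross replicate 2, and the two-sided exact permutation p was 0.667, where 2 mice against 2 cannot go below 0.333. The difference in means was 613 RPM, and 125 RPM without extra-cross replicate 1. Without original-cross replicate 2 it was 375 RPM, and without extra-cross replicate 2 it was 1101 RPM. Its direction depended on the rescaling of original-cross replicate 1, whose RefSeq rows stand on a scale 26.2 times lower than its other rows. Taking the commonest RefSeq value of that library as 1 read doubled the factor to 52.4 and gave a difference of -96.3 RPM, while median-ratio scaling gave 1173 RPM. Under the factor used, 50 of the 59 members above 0 in that library came to whole reads within 0.02, and 25 of these were odd numbers. Under the larger factor 53 were whole and 3 of them odd.

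The share of the family among all RefSeq reads needs no rescaling. It was 0.683% and 0.607% in the original cross and 1.73% and 0.960% in the extra cross, so that both extra-cross mice lay above both original-cross mice, with the exact permutation p at its smallest possible value of 0.333. The mean difference was 0.701 percentage points and 0.315 without extra-cross replicate 1. It was 1.09 without extra-cross replicate 2 and 1.15 as a share of only the rows that match a gene symbol. The denominator moved too: the summed RefSeq level was 207666 and 155300 RPM in original-cross mice, against 131739 and 136016 RPM in extra-cross mice.

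Part of the family's difference lay in 1 RNA. Snord2, whose host is the translation initiation factor gene Eif4a2, had 374 and 249 RPM in original-cross mice, against 1094 and 413 RPM in extra-cross mice. Both extra-cross values were higher, by 2.92 times in the first table and 1.66 times in the second. As a share of Snord reads it held 26.4% (Wilson 95% interval 23.6 to 29.4) and 26.4% (24.3 to 28.5) in the original cross and 47.9% (46.3 to 49.6) and 31.7% (30.4 to 32.9) in the extra cross. These intervals cover counting error only, since reads amplified by PCR are not independent molecules. Without Snord2 the family summed to 1044, 694, 1188 and 892 RPM in the same order, ranges that overlapped (exact permutation p = 0.667). Its share of RefSeq without Snord2 was 0.504%, 0.448%, 0.909% and 0.658%, still without overlap (exact permutation p = 0.333).

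**Figure D2:**
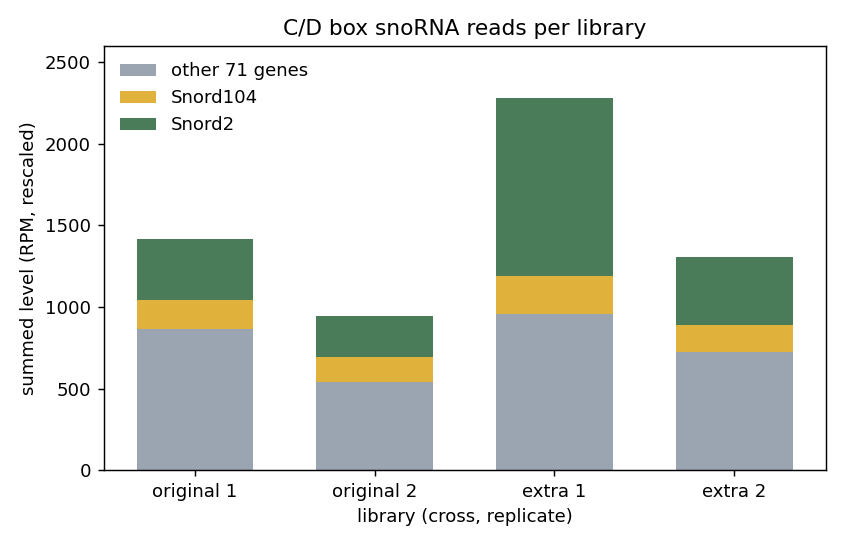
Summed level of the 73 Snord genes in each library in RPM, with original-cross replicate 1 rescaled, stacked as Snord2, Snord104 and the other 71 genes, and 1 bar per mouse. The bars reach 1419, 943, 2282 and 1306 RPM, and the Snord2 segment is the largest in extra-cross replicate 1.

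Genes were then tested one by one with limma across all 477 RefSeq genes with a mean of at least 10 RPM, on log2(RPM + 1). No gene passed a Benjamini-Hochberg adjusted p of 0.05 (0%), and no Snord gene did. At an unadjusted p under 0.05, 6 of the 477 genes were higher in the extra cross (1.26%) and 108 lower (22.6%). Of the 6, 4 were C/D box RNAs, Snord43, Snord66, Snord4a and Snord2, and none of the 108 was. Snord66 reached the minimum only through its extra-cross values, since its original-cross mean was 9.88 RPM. The count of 4 became 0 with the larger rescaling factor, where 28 of 757 genes had an unadjusted limma p under 0.05 in either direction. Median-ratio scaling gave 13, where 43 of 453 genes did. Without extra-cross replicate 1 the Snord count fell, and the median Snord log2 fold change was 0.29 against -0.52 for all genes. Leaving out extra-cross replicate 2 or original-cross replicate 1 raised the count. Without original-cross replicate 2 it stayed at 4, beside 3 Snord genes lower.

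Direction set the tested members beside a background that lay mostly the other way. Of the 26, 20 had a positive log2 fold change against 16.4% of all 477 genes, and their median was 0.42 (0.27 within the first table and 0.68 within the second) against -0.50 for all genes (-0.62 and -0.37). Without original-cross replicate 2 only 13 were positive, with a median of 0.07 against -0.65 for all genes, and without original-cross replicate 1 22 were, with a median of 0.82 against -0.33. In the extra-cross library 16 of 26 were higher within the first table (background 17.4%) and 21 of 26 within the second (background 20.3%). Higher values in each of the tables were found for 15 of 26, where the background was 9.22%, and lower values in each for 4 of 26, where it was 71.5%. Both extra-cross values lay above both original-cross values in 7 of 26 (background 4.4%), and below them in 1, Snord14e (background 54.1%). The 26 passed a minimum on the mean of all 4 libraries, so these counts describe the abundant members and not the family. Snord66 and Snord87 had original-cross means under that minimum, at 9.88 and 8.56 RPM, and Snord14e an extra-cross mean of 8.62 RPM. These members were thus tested only because of their higher cross. Among all 73 members, with no minimum, 36 had higher extra-cross values in each of the tables, where the share of all 16781 genes was 12%, and 11 had lower values in each, where it was 26%. Most of those genes are low, and many have 0 in some library.

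The sign of the Snord median turned with the larger rescaling factor, but under each scaling it lay above the median of all genes. With median-ratio scaling over RefSeq genes the Snord median was 0.95 against 0.05 for all genes, and 19 of 26 were higher in both tables against 35.1% of all genes. With the larger rescaling factor it was -0.06 against -1.03, and 4 of 30 members were higher in both against 1.72%. The 2 tables are separate pairs of mice, but all 477 genes of a library share its depth and its scaling, so the genes are not independent.

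**Figure D3:**
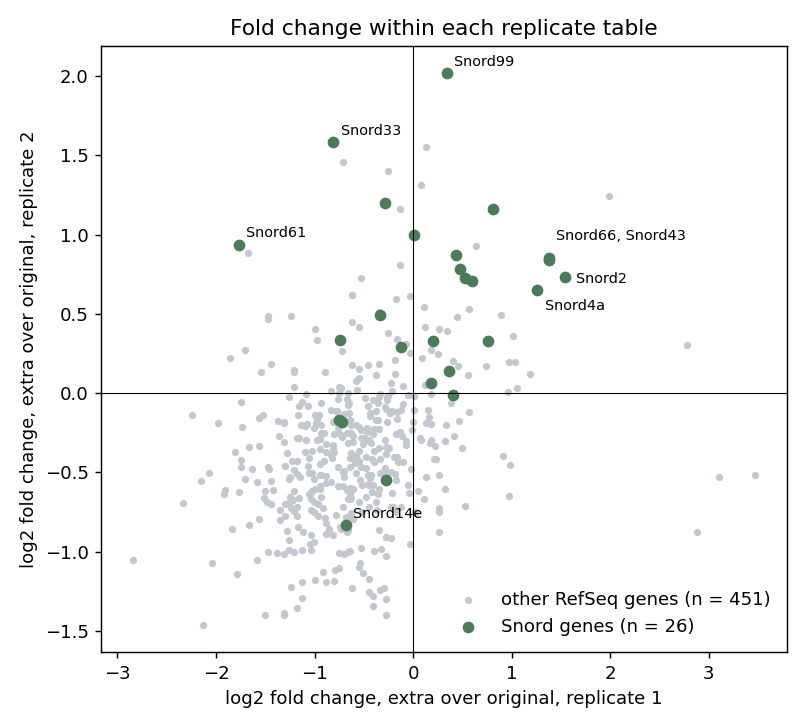
Log2 fold change, extra cross over original cross, in the first replicate table (x axis) and the second (y axis) for the 477 tested RefSeq genes, with the 26 Snord genes in green. Most grey points lie at negative values on both axes, while 15 Snord genes lie in the upper right part of the plot and 4 in the lower left, among them Snord14e.

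Guides of 28S ribosomal RNA held the highest levels. Of 29 such members 9 were tested, 8 with a positive log2 fold change (background 16.4%) and 1, Snord15b, with a negative one (median 0.63). Their summed level was 792 and 575 RPM in original-cross mice, against 1613 and 814 RPM in extra-cross mice. Without Snord2 it was 418, 327, 519 and 401 RPM, and the crosses overlapped (exact permutation p = 0.667). Snord2 had a log2 fold change of 1.14 ± 0.47 (SE, limma adjusted p = 0.198), which was 1.43 with an adjusted p of 0.0312 when original-cross replicate 1 was left out. It was 0.44 without extra-cross replicate 1.

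Snord104, the next most abundant, had 179 and 155 RPM in original-cross mice, against 230 and 171 RPM in extra-cross mice, ranges that overlapped. Its log2 fold change of 0.25 had a limma 95% interval from -0.51 to 1.01, so a doubling is near the upper limit. Snord95, another guide of 28S RNA and encoded inside Rack1, had 31.6, 17.95, 48.1 and 29.96 RPM, with original-cross replicate 1 inside the extra-cross range. Snord55 varied little, at 28.4 and 28.1 RPM in original-cross mice, against 32.7 and 35.4 RPM in extra-cross mice. These did not overlap, but the log2 fold change was only 0.26 ± 0.30.

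Other 28S guides differed between the mice of a cross. Snord99 had 20.5 and 2.24 RPM in original-cross mice, 13 and 4 reads, and 26.3 and 12.1 RPM in extra-cross mice, which gave 0.34 in the first table and 2.02 in the second. Its log2 fold change of 1.18 ± 0.78 was the highest among the 26 tested members (limma adjusted p = 0.340), passed the threshold at 2.55 without original-cross replicate 1 (adjusted p = 0.00115) and was -0.19 without original-cross replicate 2. Snord49a likewise had 19.0 and 7.29 RPM against 34.0 and 17.6 RPM, and its 0.99 ± 0.47 reached an adjusted p of 0.0171 without original-cross replicate 1, at 1.62. Snord52 and Snord15b overlapped between the crosses, at 15.8, 21.3, 17.97 and 22.4 RPM and at 22.1, 11.8, 12.8 and 15.1 RPM.

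Guides of 18S ribosomal RNA, the RNA of the small ribosomal subunit, summed to 198 and 132 RPM in original-cross mice, against 256 and 233 RPM in extra-cross mice, without overlap (exact permutation p = 0.333). Of 21 members 9 were tested, 8 with a positive (background 16.4%) and 1 with a negative log2 fold change (median 0.63). Higher values in both tables were found for 5 of the 9 (background 9.22%). Snord43, inside the ribosomal protein gene Rpl3, had 19.0 and 22.4 RPM in original-cross mice, against 50.7 and 40.9 RPM in extra-cross mice. These levels rest on 12, 40, 79 and 172 reads, with exact Poisson 95% intervals of 9.80 to 33.1, 16.03 to 30.6, 40.2 to 63.2 and 35.0 to 47.5 RPM. These intervals cover counting error only, not the spread between mice or the rescaling of original-cross replicate 1. The values of the crosses did not overlap. Its log2 fold change was 1.11 ± 0.31, with the lowest p among the tested members (limma adjusted p = 0.165).

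Snord4a, inside Rpl23a, had 17.4 and 21.3 RPM in original-cross mice, 11 and 38 reads, and 43.01 and 34.0 RPM in extra-cross mice, 67 and 143 reads. Its log2 fold change was 0.95 ± 0.31 (limma adjusted p = 0.179). Snord66, inside the initiation factor gene Eif4g1, had 11.1 and 8.70 RPM against 30.3 and 16.5 RPM, a log2 fold change of 1.12 ± 0.37 (limma adjusted p = 0.179). Both kept the crosses apart, as did Snord16a inside Rpl4, at 22.1 and 13.5 RPM against 30.2 and 25.4 RPM. Snord32a, inside Rpl13a and named here after its values were seen, was the seventh tested member without overlap, at 12.6 and 10.1 RPM against 17.97 and 18.07 RPM.

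Snord61, inside Rbmx, was the 18S guide with a negative log2 fold change, -0.41 ± 0.76. It had 39.5 and 4.49 RPM in original-cross mice, 25 and 8 reads, against 10.9 and 9.51 RPM in extra-cross mice, so that the original-cross mice spanned the others. It gave -1.77 in the first table and 0.94 in the second, and -1.86 with a limma adjusted p of 0.000818 without original-cross replicate 2. Without original-cross replicate 1 it was 1.03. Snord68 and Snord110 overlapped between the crosses, at 19.0, 25.8, 17.3 and 31.9 RPM and at 19.0, 8.98, 15.4 and 21.9 RPM.

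**Figure D4:**
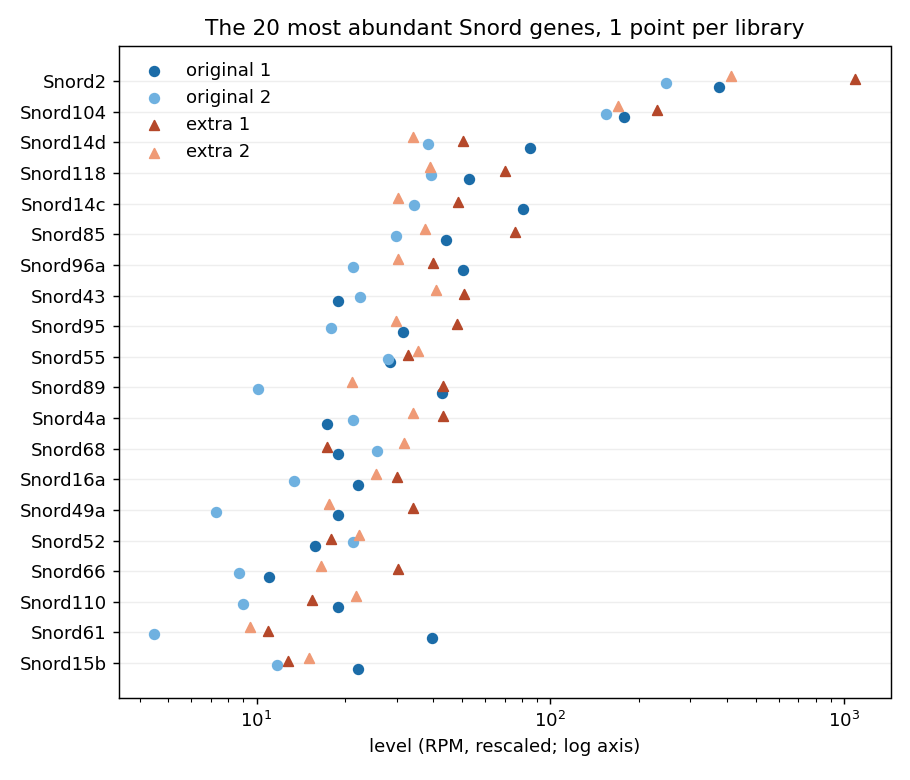
Level in RPM (log axis) of the 20 Snord genes with the highest mean, 1 point per library, circles for the original cross and triangles for the extra cross. Both triangles lie right of both circles for Snord2, Snord43, Snord55, Snord4a, Snord16a and Snord66, and the 2 circles of Snord61 lie far apart at 39.5 and 4.49 RPM.

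RNAs that act in cutting the ribosomal precursor or in its acetylation had negative log2 fold changes in 4 of 5 tested members, near the 83.6% of all 477 genes. These 7 genes together came to 253 and 142 RPM in original-cross mice, against 208 and 119 RPM in extra-cross mice, ranges that overlapped. U14 is needed for 18S processing, and its abundant copies made up much of the sum: Snord14c, Snord14d and Snord14e summed to 184 and 85.6 RPM against 110 and 71.1 RPM. Snord14d had 85.6, 38.4, 50.4 and 34.1 RPM, a log2 fold change of -0.46 ± 0.43, and Snord14c had 80.8, 34.5, 48.5 and 30.3 RPM at -0.45 ± 0.44. As near-identical copies that divided reads they are 1 measurement rather than 2. Both signs turned without original-cross replicate 1, to 0.11 for Snord14d and 0.15 for Snord14c.

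Snord14e, the diverged copy, had 17.6 and 12.6 RPM in original-cross mice, against 10.6 and 6.66 RPM in extra-cross mice. It was the only tested member with both extra-cross values below the others, at -0.76 ± 0.41 (limma adjusted p = 0.283), and kept its sign without each library in turn. Snord22, known as U22, had 15.8, 11.2, 12.8 and 7.37 RPM with overlap. Snord14a, another U14 gene and named after its values were seen, was near 0, at 0.226 and 0.281 RPM against 0.963 and 0.713 RPM, at most 3 reads in a library. Snord118, known as U8 and needed for 28S and 5.8S processing, had 52.8, 39.3, 70.2 and 39.0 RPM and a log2 fold change of 0.20 ± 0.38, with the lowest value in the extra cross. Whether the difference between the U14 copies and the guides exceeds the spread was not tested.

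The remaining roles were smaller. Snord96a, a guide of 5.8S ribosomal RNA inside Rack1, had 50.6, 21.3, 39.8 and 30.4 RPM, the extra-cross mice lying inside the original-cross range. The 3 guides of U6 snRNA together summed to 6.32, 3.09, 3.85 and 4.99 RPM and none was tested. Snord89, which has no known ribosomal or spliceosomal target, had 42.7 and 10.1 RPM against 43.01 and 21.2 RPM, and its log2 fold change of 0.50 ± 0.60 became 1.49 with a limma adjusted p of 0.0312 without original-cross replicate 1. It was -0.48 without original-cross replicate 2. Snord85, given no role here, had 44.2, 29.7, 75.7 and 37.6 RPM with overlap.

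Of the imprinted families, which brain and other tissues express from 1 parental chromosome, Snord64 was the member detected. The gene reference holds no Snord107, Snord113, Snord114 or Snord115 gene, so these families could not be searched. Most of its Snord116 copies have only a predicted transcript, so their lack of a row need not mean absence from sperm. It had 0 reads in both original-cross libraries and 4 and 9 reads in the extra-cross ones, 2.57 and 2.14 RPM. A count of 0 allows up to 4.74 RPM in original-cross replicate 1 and 1.68 RPM in replicate 2, taken as 3 counts per library, so the depth of the first does not separate the crosses.

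**Figure D5:**
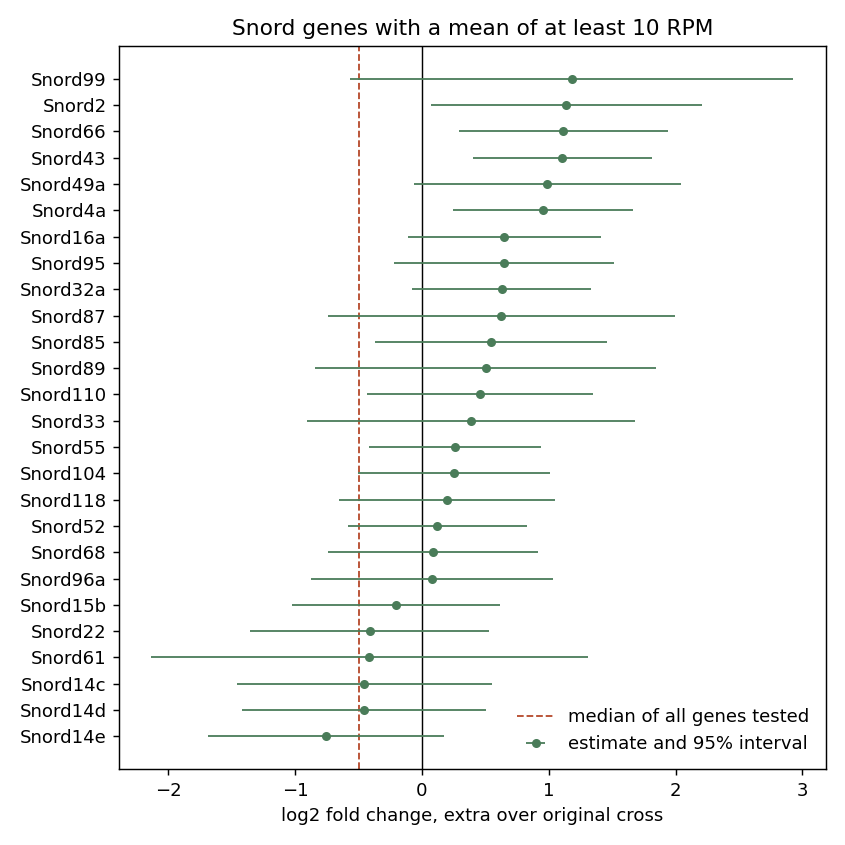
Log2 fold change, extra cross over original cross, with its limma 95% interval for the 26 tested Snord genes, and a dashed line at the median of all 477 genes, -0.50. Intervals of Snord2, Snord66, Snord43 and Snord4a lie above 0 before adjustment for multiple testing, and those of Snord99 and Snord61 are the widest.

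Other classes of the same small nuclear world were read from the same fit. Of the box H/ACA snoRNAs, which guide pseudouridylation, 5 were tested, 4 with a positive log2 fold change against a background of 16.4%. The median was 0.55, but -0.14 within the first table. Their summed level was 173, 84.5, 150 and 130 RPM, and the ratio of summed Snord to summed Snora was 8.21, 11.2, 15.2 and 10.1, with overlap (exact permutation p = 0.667). All 5 U3 genes were higher in both tables (background 9.22%), with a median of 0.27. They are near-identical copies of the C/D box RNA of 18S processing that carries another name. Their levels summed to 138, 95.4, 157 and 123 RPM, with overlap. Of 9 spliceosomal snRNA genes tested 1 was positive and 8 negative (median -0.20), near the 83.6% of all 477 genes that were negative.

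Host transcripts had mostly negative log2 fold changes, like other RefSeq genes. Of 15 tested coding hosts 1 was positive and 14 negative (median -0.32). Among 10 tested members whose host was tested too, with 7 hosts between them, the log2 fold change of the Snord gene was above that of its host in 6. Eif4a2, the host of Snord2, had 9.62 and 7.36 RPM in original-cross mice, against 5.54 and 2.81 RPM in extra-cross mice, beside 374 and 249 against 1094 and 413 RPM for Snord2. Rpl3 had 14.8, 15.6, 9.20 and 9.51 RPM beside the higher extra-cross values of Snord43, and Rpl23a 20.5, 15.2, 7.70 and 13.2 RPM beside those of Snord4a. Reads of long transcripts in a small RNA library are fragments, so these values are not levels of intact mRNA. No gene of the box C/D core proteins, which include fibrillarin, Nop56, Nop58 and Snu13, reached 10 RPM, and together they had 4.74, 3.63, 5.59 and 4.24 RPM.

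Markers of other cells differed between the libraries as well. The 24 sperm transcripts summed to 6.32, 15.3, 10.6 and 9.75 RPM, and none reached 10 RPM. Of these, 4 (Prm3, Akap3, Pgk2 and Tekt1) had no row under their symbol and were taken as 0. The protamine gene Prm1, a defining sperm transcript, was at 0, 2.24, 0.642 and 0.951 RPM, so fragments of sperm mRNA were scarce under the label of spermatozoa. All 16 genes of stroma and smooth muscle were above 0 and summed to 3692 and 4228 RPM in original-cross mice against 1647 and 1887 RPM in extra-cross mice, led by Col1a1. All 25 of the epididymal epithelium summed to 114 and 226 RPM against 240 and 272 RPM, and all 13 of blood to 187 and 142 RPM against 134 and 82.5 RPM. The blood sum rested on Cd74 and Lyz2, and the other 11 genes summed to 21.9, 12.7, 15.1 and 16.6 RPM, with overlap. The stroma sum was thus lower, and the epithelium sum higher, in both extra-cross libraries, where the Snord share of RefSeq was higher too. Within each cross, the mouse with the higher epithelium sum also had the higher stroma sum and the lower Snord share. Epithelial genes also differed in direction in replicate 2. From original to extra cross, Lcn5 went from 23 to 55.9 RPM there and Defb20 from 27.5 to 14.5 RPM. The part of these cells in the Snord result was not tested. In bulk RNA, fewer cells of a type and less RNA per cell cannot be told apart.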

How the data were processed

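Small RNA of 4 sperm samples was deposited by the authors as RPM in 2 tables, 1 per replicate number, with a column per cross. CASAVA 1.8.2, Bowtie 1.1.2 and the build mm10 are listed in the submitters' processing notes without their roles. Not given in the sources used here are the total behind RPM, the adapter trimming and the rule for reads with several matches. A transcript listed in 1 table only was given 0 in the other. Of 68434 RefSeq rows 55917 (81.7%) matched a symbol in the reference gene table.

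The value of 1 read was the commonest miRNA value of each column, which puts 632859, 1782506, 1557766 and 4205692 reads behind the scale. RefSeq rows of original-cross replicate 1 had a 1-read value of 0.0603 RPM, chosen as the common value whose simple fractions were also common, and were multiplied by 26.2. Only 11.8% to 13.8% of all RefSeq rows were whole reads within 0.02, so no count test was run, although 83.3% to 88.6% of Snord values were. Transcripts were summed per gene and genes that averaged at least 10 RPM were fitted on log2(RPM + 1) with limma 3.58.1 (R 4.3.3), cross type as the only term, a variance trend and Benjamini-Hochberg adjustment over 477 genes. Fold changes on this scale understate those of low genes. Single sums were compared by two-sided exact permutation tests. The labels name no batch. Limma p-values rest on the spread between the 2 mice of a cross, moderated by the variances of all tested genes. Permutation p-values come from relabelling the 4 libraries and do not measure that spread.

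On simulated data with 477 genes the fit recovered 38% of 2-fold, 92% of 4-fold and 100% of larger changes, with 5 false calls among 277. The simulation changed 50 genes at each of 2-, 4-, 8- and 16-fold, in either direction, with independent noise per gene. So many changes ease the adjusted threshold, and no error shared by a whole library was simulated. Recovery in the real data may therefore be lower. Sequences and hosts came from GENCODE M21 (GRCm38, also called mm10), promoters from RefSeq. Roles of members were assigned from general knowledge after the files were read. Box searches used the RNA strand. The text names the 20 most abundant members, the 5 highest and 5 lowest log2 fold changes, detected members of imprinted families, their hosts, and abundant genes of other lists. Members and lists were chosen with earlier results of these data known. Scripts used Python 3.11.15, pandas 2.3.3, numpy 2.4.6, scipy 1.17.1 and matplotlib 3.10.9.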

Additional observations from a re-analysis of the deposited data

How the results depend on the processing

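No gene of the 477 passed the adjusted limma threshold in the fit as reported or with the replicate block, another pseudocount, filter, variance model or scaling (0 genes in each). Leaving out each library in turn gave 1 to 42 genes past it: 12 without original-cross replicate 1, 42 without original-cross replicate 2, 2 without extra-cross replicate 1 and 1 without extra-cross replicate 2, where the lone mouse is assumed to vary like the other cross. The replicate numbers are not known to pair the mice. Their deviations correlated at 0.332 across 477 genes, and the block gave 131 genes at an unadjusted p under 0.05 against 114 without it. The summed Snord difference of 613 RPM ranged from 125 to 1101 RPM over the left-out libraries and the share difference from 0.315 to 1.09 percentage points. The summed difference was 1173 RPM with median-ratio scaling, chosen after seeing the data, and 1295 RPM as deposited, and the share difference was 1.15 percentage points over the rows that match a gene symbol only.

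With the commonest RefSeq value taken as 1 read, the summed difference was -96.3 RPM, 4 members (of 30) instead of 15 were higher in both tables, an alternative chosen after seeing the data for that count, and log2 fold changes turned to -0.25 for Snord104, -0.025 for Snord110, -0.30 for Snord118, -0.36 for Snord52, -0.23 for Snord55, -0.40 for Snord68 and -0.42 for Snord96a. With median-ratio scaling they turned to 0.10 for Snord14c, 0.10 for Snord14d, 0.33 for Snord15b, 0.11 for Snord22 and 0.12 for Snord61. Scaled to the RefSeq sum, Snord15b was at 0.20, and as deposited Snord14c and Snord14d were at 1.71 and Snord15b at 1.62. Over the left-out libraries the signs of 11 named members turned: Snord110 (-0.043 to 0.96), Snord118 (-0.22 to 0.61), Snord14c (-1.06 to 0.15), Snord14d (-1.03 to 0.11), Snord15b (-0.63 to 0.22), Snord52 (-0.085 to 0.33), Snord61 (-1.86 to 1.03), Snord68 (-0.34 to 0.51), Snord89 (-0.48 to 1.49), Snord96a (-0.53 to 0.68) and Snord99 (-0.19 to 2.55). The cause was not tested. Depth limits original-cross replicate 1 most, where 3 counts come to 4.74 RPM.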
